A study of Punica granatum with 8 samples.

Results

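Among the 18831 genes counted in pomegranate hairy roots, 48 met a rule for being set apart only in the lines overexpressing PgMyb308-like. Of them 25 were higher and 23 lower. The members were chosen on the normalized counts that the authors deposited, which are read counts divided by 1 size factor per library. A gene was taken when its mean over the 8 libraries was at least 10 and when the lowest PgMyb308-like library was at least 1.5 times the highest of the other 5 libraries, or the lowest of the other 5 was at least 1.5 times the highest PgMyb308-like library. Genes in which both line 1712 libraries lay above all 3 empty vector libraries, or both below, were then dropped, which removed 10 of 35 higher genes and 5 of 28 lower genes. In 9 of the 10 dropped higher genes line 1712 lay above the empty vector, and in 4 of the 5 dropped lower genes it lay below. As the same values chose the members, the differences given here describe them and carry no test. The 25 and 23 members are 0.168% and 0.155% of the 14869 genes with a mean of at least 10.

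PgMyb308-like is an R2R3 Myb transcription factor, of the subgroup whose members in other plants act mostly as repressors of phenylpropanoid genes, the pathway that leads from phenylalanine to lignin and flavonoids. Hairy roots grow from plant cells infected with Agrobacterium rhizogenes, and each root carries its own insertion of the construct. The study asked which genes follow PgMyb308-like. All roots were of cultivar PG116-17, were chosen by green fluorescent protein and grew for 3 months in a greenhouse. The PgMyb308-like lines (3 libraries) carried that gene under the constitutive 35S promoter, and they had been picked among more lines for a high level of it. The other 5 were 2 libraries of line 1712, given in the labels as PgMyb308 overexpression with a sequence record of its own, and 3 libraries of the empty vector (EV). Each library came from all cells of a root, so that fewer cells of a type and less RNA per cell cannot be told apart. The count tables and the annotation used here identify genes by locus and do not pair them with gene names or functions. For this reason no role is given to a member, the tissue was not checked against marker genes, and the level of the transgene is not analysed here.

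TranSeq reads the 3′ ends of transcripts, so a count does not depend on gene length. The libraries held 1263321 to 3484260 counts with PgMyb308-like, 1507120 and 3976951 in line 1712 and 1854987 to 3008991 in EV. Along the leading principal component of the log2 counts scaled to library size, which held 35.3% of the variance, the PgMyb308-like libraries lay far apart, at 105.2, 46.7 and -48.5, against -33.7 and 31.6 in line 1712 and -61.9 to -6.4 in EV. PgMyb308-like replicates 1 and 2 thus lay above every other library and replicate 3 below all but EV replicate 1. Without PgMyb308-like replicate 3 the rule found 147 genes higher and 283 lower, against 61 and 71 without replicate 1 and 45 and 55 without replicate 2. By its construction the rule is easier to meet with fewer PgMyb308-like libraries.

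**Figure D1:**
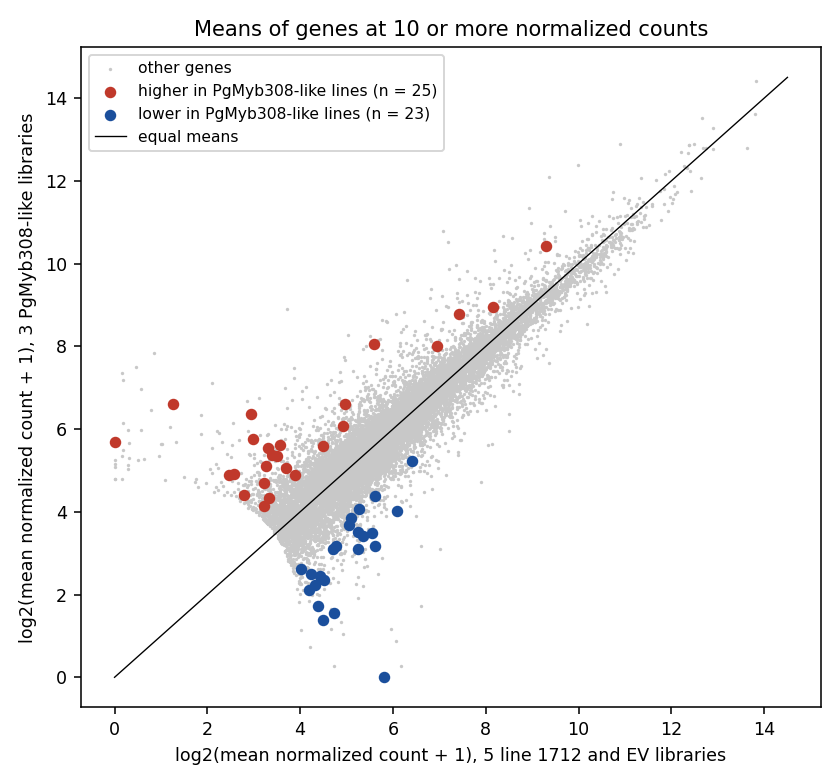
Mean normalized count of each of the 14869 genes over the 3 PgMyb308-like libraries (vertical axis) and over the 5 line 1712 and EV libraries (horizontal axis), both as log2 of the mean plus 1. The 25 members higher in PgMyb308-like lines (red) lie above the line of equal means and the 23 lower ones (blue) below it, and most of them are genes of low count.

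Among the higher members, LOC116187908 had the widest gap of those detected in every group. This gene, on chromosome 8 of the ASM765513v2 assembly from 3504183 to 3508596, stood at 56.4, 55.7 and 48.1 normalized counts in the PgMyb308-like libraries, against 7.91 and 1.40 in line 1712 and 9.62, 7.46 and 8.29 in EV. The 3 PgMyb308-like lines were close to each other and the groups did not overlap, with 5.0 times between the nearest libraries. In the fit its log2 fold change was 2.63 (standard error 0.55) against EV and 3.30 (standard error 0.67) against line 1712. Another annotated gene, from 3508016 to 3508459, lies inside its right end and is not in the count table, so that some of its reads may belong to either.

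LOC116205188 showed the largest fitted difference from EV of the higher members, and it was less clear-cut against line 1712. It lies on chromosome 4 from 533730 to 539925, and it had 78.2, 96.0 and 68.2 normalized counts with PgMyb308-like, against 2.82 and 26.5 in line 1712 and 3.61, 0 and 0.69 in EV. EV held 4 reads in all, while line 1712 replicate 2 held 19. The log2 fold change was 5.84 (standard error 0.99) against EV and 2.56 (standard error 0.90) against line 1712. Without EV replicate 1, which held 3 of the 4 EV reads, the value against EV was 7.27. An annotated gene from 533707 to 556038 spans the whole locus and is not in the count table, so that the reads cannot be given to one of the pair with certainty.

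LOC116206277, a short gene on chromosome 4 from 2072630 to 2073611, held its level within narrow limits in the PgMyb308-like lines. It had 50.9, 42.3 and 44.2 normalized counts there, against 7.91 and 5.58 in line 1712 and 6.01, 18.1 and 6.91 in EV. EV replicate 2 was the nearest of the other libraries, 2.33 times below the lowest PgMyb308-like library. The gene overlaps the left end of the next annotated one, from 2073584 to 2076157, which stood at 16.4 to 25.8 with PgMyb308-like, 9.77 and 21.5 in line 1712 and 6.22 to 20.5 in EV, so that the groups of this neighbour overlapped.

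On chromosome 2 from 7621167 to 7627198, LOC116194592 had 45.5, 36.1 and 40.3 normalized counts with PgMyb308-like, against 16.4 and 5.58 in line 1712 and 8.42, 7.46 and 9.67 in EV. LOC116194651, on chromosome 1 from 8712382 to 8714023, had 47.3, 43.4 and 29.2, against 11.9 and 14.0 in line 1712 and 13.2, 1.07 and 11.7 in EV. In both genes a line 1712 library was the highest of the line 1712 and EV libraries. The lowest PgMyb308-like library lay 2.21 and 2.09 times above it.

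The remaining 4 higher members among the 10 with the widest gaps follow. LOC116187029, on chromosome 8 from 25465803 to 25467456, had 18.2, 48.5 and 19.5 normalized counts with PgMyb308-like, against 2.82 and 9.77 in line 1712 and 1.20, 3.20 and 5.53 in EV. LOC116208696, on chromosome 5 from 24780476 to 24783309, had 56.4, 23.7 and 19.5, against 6.78 and 11.2 in line 1712 and 6.01, 10.7 and 8.29 in EV. The first was led by PgMyb308-like replicate 2 and the second by replicate 1. LOC116215918, on chromosome 8 from 12675937 to 12678696, had 124, 90.8 and 74.7, against 15.2 and 41.9 in line 1712 and 24.1, 42.6 and 28.3 in EV. LOC116211223, on chromosome 6 from 27077059 to 27079768, was low throughout, at 23.6, 19.6 and 17.5 against 8.47 and 4.19 in line 1712 and 4.81, 9.60 and 2.76 in EV, or 3 to 27 reads in a library.

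Next come the 5 most abundant higher members, of which LOC116211272 had the largest fitted difference from EV and LOC116197814 the smallest. LOC116188462, on chromosome 8 from 25348999 to 25349600, was the most abundant, at 1211, 1478 and 1399.5 normalized counts with PgMyb308-like, against 561 and 724 in line 1712 and 736, 358 and 742 in EV. Its log2 fold change was 1.15 (standard error 0.30) against EV and 1.06 (standard error 0.34) against line 1712, a little over a doubling on either side. The right end of this gene overlaps the next annotated one, from 25349496 to 25354382. That neighbour stood at 9.09 to 35.09 with PgMyb308-like, 18.08 and 22.33 in line 1712 and 29.7 to 39.45 in EV. LOC116197814, on chromosome 2 from 30050127 to 30053958, had 478, 521 and 471, against 313 and 292 in line 1712 and 308, 244 and 256 in EV. With a log2 fold change of 0.86 (standard error 0.21) against EV and 0.68 (standard error 0.24) against line 1712, it had the smallest fitted difference of the higher members in both comparisons.

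LOC116198837, on chromosome 3 from 34817780 to 34819120, had 378, 538 and 397 normalized counts with PgMyb308-like, against 93.8 and 247 in line 1712 and 186, 166 and 164 in EV. The line 1712 libraries lay on both sides of the EV range here. LOC116199082, on the same chromosome from 10544374 to 10547668, had 229, 300.3 and 235, against 125 and 139.6 in line 1712 and 122, 90.6 and 132 in EV. LOC116211272, on chromosome 6 from 25028800 to 25030034, had 220.0, 425 and 155, against 23.7 and 99.1 in line 1712 and 22.9, 41.6 and 49.7 in EV. It combined a high level with a large difference from EV, a log2 fold change of 2.79 (standard error 0.58), though line 1712 replicate 2 came within 1.57 times of the lowest PgMyb308-like library.

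Of the other higher members, LOC116204265 and LOC116204955 are described further below. The remaining 8 had gaps of at most 1.61 times. They stood at 14.6 to 79.5 normalized counts in the PgMyb308-like libraries, against 5.58 to 35.0 in line 1712 and 3.20 to 37.3 in EV. LOC116213033, on chromosome 7 from 10982036 to 10985551, was the most abundant of these, at 60.0, 79.5 and 60.4 against 35.0 and 15.4 in line 1712 and 37.3, 33.1 and 26.2 in EV. LOC116208141, on chromosome 5 from 4835672 to 4840014, had 38.2, 60.9 and 41.6, against 23.2 and 23.7 in line 1712 and 19.2, 17.1 and 24.2 in EV, which left line 1712 and EV at nearly 1 level. LOC116205716, on chromosome 4 from 14861951 to 14866004, was one of the few higher members led by PgMyb308-like replicate 3. It had 43.6, 26.8 and 72.8 with PgMyb308-like, against 13.6 and 6.98 in line 1712 and 4.27 to 17.3 in EV. The rest were LOC116213857, LOC116203494, LOC116205116, LOC116188568 and LOC116208567.

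A pair of higher members met the rule through 1 line. LOC116187881, on chromosome 8 from 5070219 to 5074852, had 151 normalized counts in PgMyb308-like replicate 1 but 1.03 and 0.65 in replicates 2 and 3, and it was at 0 in all 5 line 1712 and EV libraries. These values stand for 83, 1 and 1 reads, so that replicates 2 and 3 lie at the level of a single read. LOC116204955, on chromosome 4 from 35233247 to 35234592 and singled out after its values were seen, had 275, 5.16 and 11.1, against 3.39 and 1.40 in line 1712 and 0, 2.13 and 0 in EV. For both genes the other PgMyb308-like lines were close to the libraries they are set against, and neither passed the expression filter of edgeR. In 18 of the 25 higher members the 3 PgMyb308-like libraries lay within 2-fold of each other, and these were the members that lay more than 10-fold apart.

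**Figure D2:**
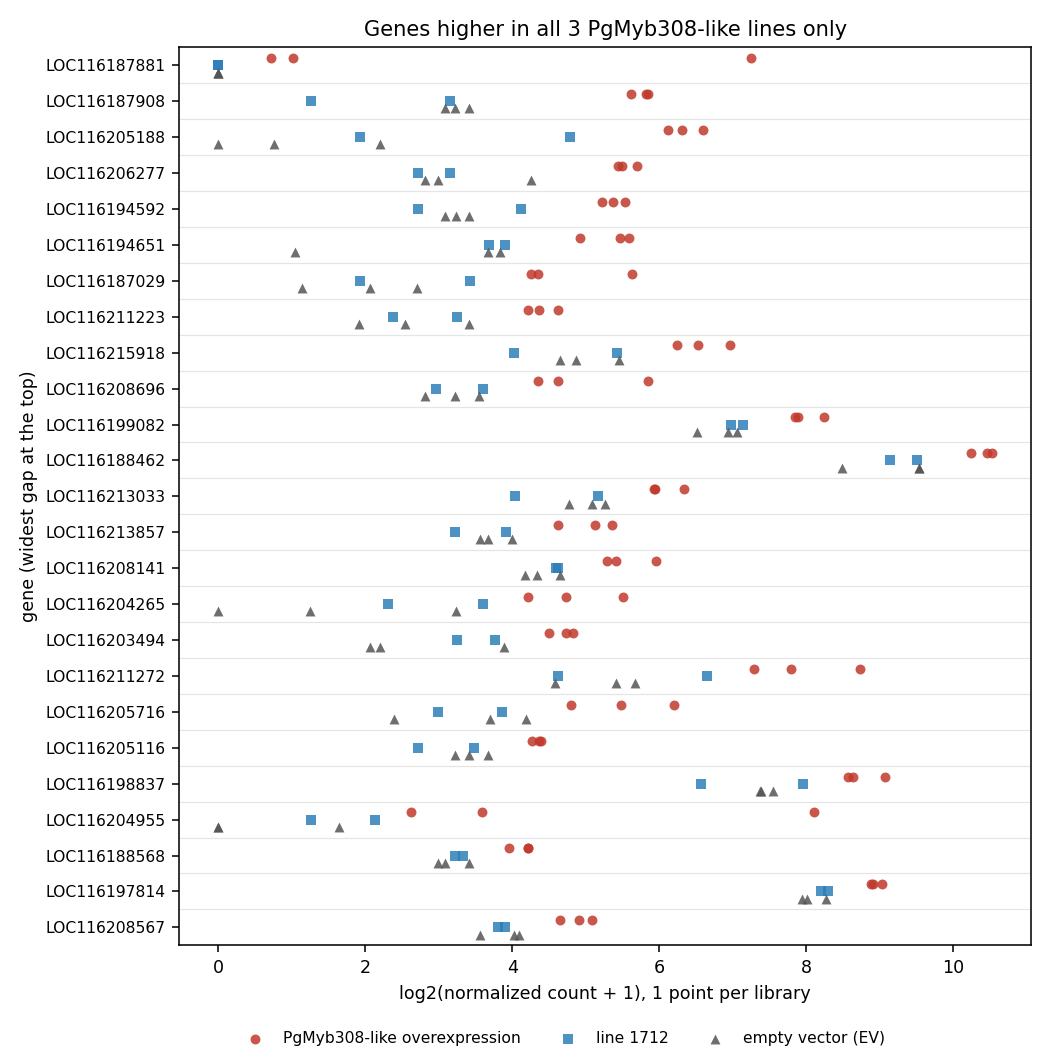
Normalized count of the 25 higher members in each library, as log2 of the value plus 1, with 1 gene per line of the plot and the widest gap at the top. In each gene the 3 PgMyb308-like points (red circles) lie to the right of the line 1712 (blue squares) and EV (grey triangles) points, and in LOC116187881 and LOC116204955 a single PgMyb308-like point stands far to the right of the other two.

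Among the lower members, LOC116208979 was not detected in any PgMyb308-like line. This gene, on chromosome 5 from 12311785 to 12313184, had 0 reads in each of the 3 PgMyb308-like libraries, against 184 and 17 in line 1712 and 63, 56 and 18 in EV. In normalized counts the values were 0, 0 and 0 against 104 and 23.7 in line 1712 and 75.8, 59.7 and 12.4 in EV, so that all other libraries expressed it at levels that varied among themselves. At the EV level 130.2 reads would be expected over the 3 PgMyb308-like libraries and at the line 1712 level 247. Taking 3 reads over the 3 libraries as the most that a count of 0 allows, the gene was at least 43.4-fold lower than in EV and at least 82.4-fold lower than in line 1712, a limit that covers counting error only.

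Another 3 lower members held very few reads in the PgMyb308-like lines. LOC116196272, on chromosome 2 from 1385638 to 1388958, had 1.82, 2.06 and 1.95 normalized counts with PgMyb308-like, against 68.3 and 14.0 in line 1712 and 18.0, 13.9 and 13.1 in EV. The PgMyb308-like values stand for 1, 2 and 3 reads, and line 1712 replicate 1 stood far above all other libraries. LOC116204051, on chromosome 4 from 38159830 to 38164043, had 1.82, 1.03 and 1.95, against 8.47 and 18.1 in line 1712 and 13.2, 24.5 and 42.8 in EV. LOC116192787, the longest member, on chromosome 1 from 55413366 to 55431799, had 3.64, 3.10 and 3.25, against 13.6 and 11.2 in line 1712 and 10.8, 14.9 and 35.9 in EV. In these 3 genes the PgMyb308-like lines were even, at 1 to 5 reads a library, and the nearest other library lay 6.37, 4.34 and 2.98 times higher.

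The other 6 lower members with the widest gaps were less even across the PgMyb308-like lines. LOC116206917, on chromosome 5 from 27150277 to 27153279, had 14.6, 2.06 and 14.3 normalized counts, against 49.1 and 29.3 in line 1712 and 45.7, 26.7 and 78.1 in EV. LOC116206701, on the same chromosome from 28602278 to 28606063, had 5.46, 6.19 and 0.65, against 19.2 and 27.9 in line 1712 and 10.8, 23.5 and 27.6 in EV. The line with the lowest value was thus replicate 2 in the one and replicate 3 in the other. LOC116199890, on chromosome 3 from 35923376 to 35926138, had 7.27, 5.16 and 10.4, against 29.9 and 37.7 in line 1712 and 66.2, 30.9 and 19.3 in EV. LOC116197025, on chromosome 2 from 26360062 to 26363011, had 1.82, 2.06 and 7.15, against 16.9 and 14.0 in line 1712 and 31.3, 19.2 and 13.8 in EV. In both of these replicate 3 was the highest PgMyb308-like line, and it still lay 1.86 and 1.93 times below the lowest other library. Replicate 3 was also the highest in LOC116187365, on chromosome 8 from 6048319 to 6049897, at 3.64, 3.10 and 7.15 against 12.4 and 16.8 in line 1712 and 14.4, 33.1 and 12.4 in EV.

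LOC116194724, on chromosome 2 from 1485140 to 1486745, had 14.6, 1.03 and 8.45 normalized counts with PgMyb308-like, against 25.4 and 40.5 in line 1712 and 37.3, 80.0 and 55.3 in EV. In the fit its log2 fold change was -2.93 (standard error 0.68) against EV and -2.12 (standard error 0.73) against line 1712. The gene before it in the count table, LOC116194173, is no member, but its PgMyb308-like libraries were also the lowest of all, at 16.4, 8.26 and 59.1, against 138 and 82.3 in line 1712 and 149, 68.2 and 123 in EV. Its groups did not overlap, but the nearest libraries were too close for the rule, and its log2 fold change against EV was -1.96 (standard error 0.62). The gene was singled out after its values were seen. Among the 40 flanking genes of lower members that edgeR tested, only this 1 was lower at an unadjusted p under 0.05.

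The lower members were all of low or moderate count, the most abundant being LOC116195314 on chromosome 2 from 43288431 to 43294205. It had 34.5, 44.4 and 31.2 normalized counts with PgMyb308-like, against 67.2 and 82.3 in line 1712 and 74.6, 74.6 and 119 in EV. With a log2 fold change of -1.29 (standard error 0.32) against EV it was also the lower member with the smallest fitted difference there. LOC116187683, on chromosome 8 from 25274431 to 25277759, had 18.2, 9.29 and 18.2, against 63.3 and 110.2 in line 1712 and 78.2, 53.3 and 29.7 in EV. LOC116196258, on chromosome 2 from 35196762 to 35199288, had 20.0, 22.7 and 16.9, against 42.4 and 47.5 in line 1712 and 73.4, 34.1 and 41.5 in EV.

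The other lower members, LOC116201677 and LOC116204267 apart, had 0 to 19.5 normalized counts in the PgMyb308-like libraries, against 11.2 to 40.5 in line 1712 and 9.62 to 74.6 in EV. LOC116194275, on chromosome 2 from 41273571 to 41275520, was even across the PgMyb308-like lines, at 10.9, 9.29 and 11.1 against 32.8 and 40.5 in line 1712 and 18.0, 19.2 and 74.6 in EV. LOC116187433, on chromosome 8 from 23015605 to 23019703, was uneven there, at 3.64, 9.29 and 16.2 against 32.8 and 37.7 in line 1712 and 27.7, 61.8 and 38.7 in EV. In 3 of them PgMyb308-like replicate 1 was at 0 and replicates 2 and 3 were not: LOC116214317 had 0, 1.03 and 5.85, LOC116187473 had 0, 6.19 and 7.15, and LOC116198856 had 0, 8.26 and 7.15, while no line 1712 or EV library of these genes lay under 9.62. The PgMyb308-like values stand for 0, 1 and 9 reads, 0, 6 and 11, and 0, 8 and 11. Replicate 1 is the smallest library, at 1263321 counts, so a 0 there says less than in a deeper one. The rest were LOC116208678, LOC116203032 and LOC116201148.

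**Figure D3:**
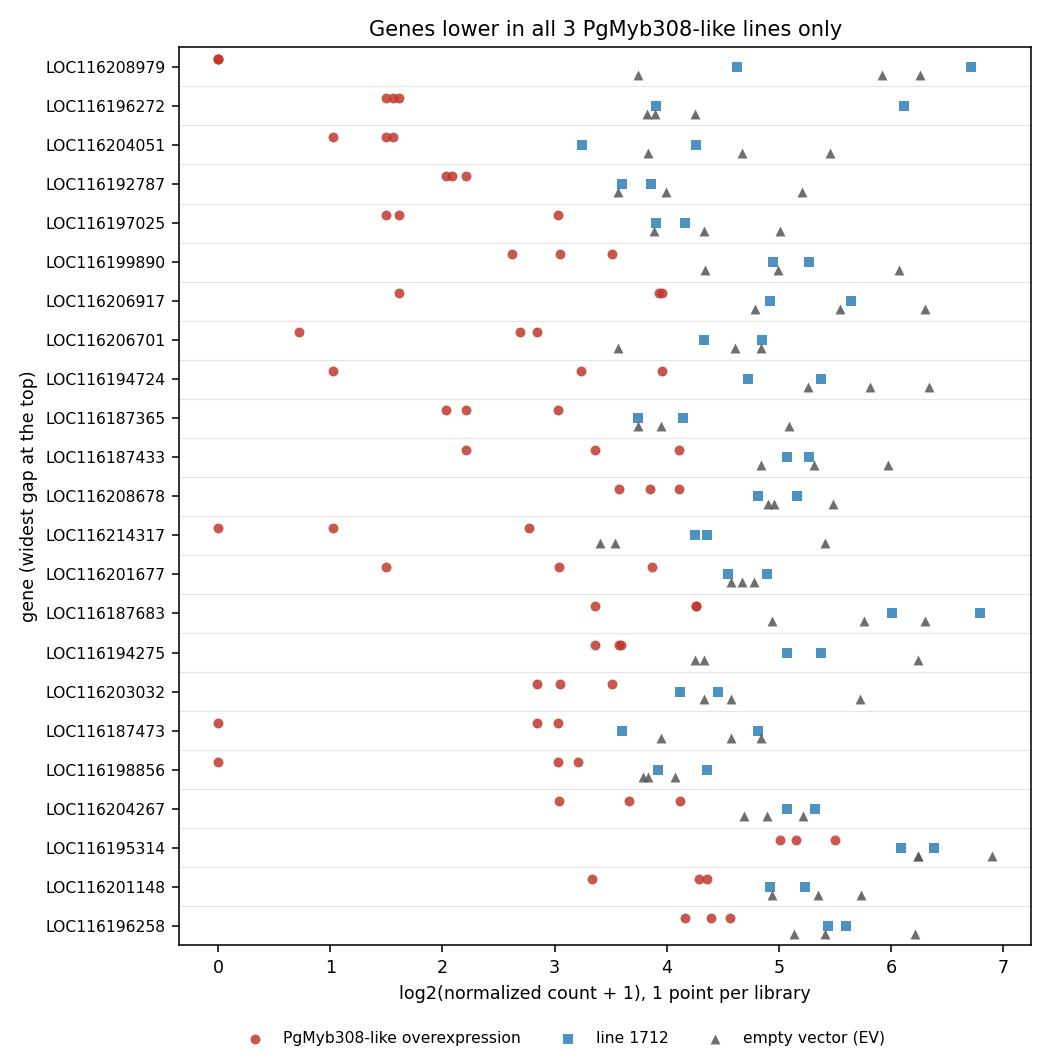
Normalized count of the 23 lower members in each library, as log2 of the value plus 1, with 1 gene per line of the plot and the widest gap at the top. In each gene the 3 PgMyb308-like points (red circles) lie to the left of the line 1712 (blue squares) and EV (grey triangles) points, and LOC116208979 is at 0 in all 3 PgMyb308-like libraries.

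The rule did not use the order of the 3 PgMyb308-like lines. Replicate 1 was the highest of the 3 in 11 of the 25 higher members, replicate 2 in 12 and replicate 3 in 2. In the same members replicate 3 was the lowest of the 3 in 12, replicate 1 in 7 and replicate 2 in 6. In the 22 lower members in which the 3 differed, replicate 3 was the highest of the 3 in 13 and the lowest in 3. Replicate 3 was thus most often the PgMyb308-like line nearest to the other libraries in both directions. It is the line at -48.5 on the first principal component, among the EV libraries, and the largest PgMyb308-like library, at 3484260 counts. On the second component it was the lowest of all libraries, at -49.3, and lay apart from EV. Genes are not independent replicates, and these counts of members were not tested or set beside all genes. Line 1712 makes up 2 of the other 5 libraries. A line 1712 library was the nearest to the PgMyb308-like lines in 12 of the 25 higher members, of which 8 were replicate 2. In the lower members it was nearest in 9 of 23. A tie was counted for line 1712, as in LOC116187881, where all 5 were at 0. In LOC116187365 line 1712 replicate 1 tied with EV replicate 3 at 12.4 normalized counts. The mean of line 1712 was above the mean of EV in 15 of the 25 higher and 7 of the 23 lower members, a split that the dropping of genes with a shifted line 1712 in part fixes.

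With the genes fitted together, no member was called in either comparison by edgeR's quasi-likelihood test, where a call needs a Benjamini-Hochberg adjusted p under 0.05 and more than a 2-fold difference either way. The rule used both contrasts, so nothing is read from these counts. Against EV, 0 of the 23 higher members tested and 0 of the 23 lower ones were called, where 0.0313% and 0.00627% of the 15957 genes tested were called higher and lower. At an unadjusted p under 0.05, edgeR gave 20 of the 23 higher members and 22 of the 23 lower ones, against 4.85% and 3.42% of all genes. DESeq2 called 9 higher and 4 lower members, against 0.934% and 0.32% of all genes. Against line 1712 edgeR called 0 members and 0 genes of the 15957. It gave 15 higher and 18 lower members at an unadjusted p under 0.05, where 1.84% and 1.71% of all genes were higher and lower, and DESeq2 called 1 higher and 3 lower members, against 0.0376% of all genes in each direction.

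The comparisons share the PgMyb308-like libraries, and the rule asks for a gap from both groups, so that like sizes in both are in part fixed by it. The log2 fold changes of the higher members had a median of 1.77 against EV (range 0.86 to 5.84) and of 1.58 against line 1712 (range 0.68 to 3.30). Those of the lower members had a median of -2.04 against EV and -1.90 against line 1712. Over all genes tested the medians were 0.0094 and 0.0046. The standard errors of the members against EV ran from 0.21 to 1.53, and the widest was that of LOC116208979, whose fitted value depends on the prior count because its PgMyb308-like libraries are at 0.

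**Figure D4:**
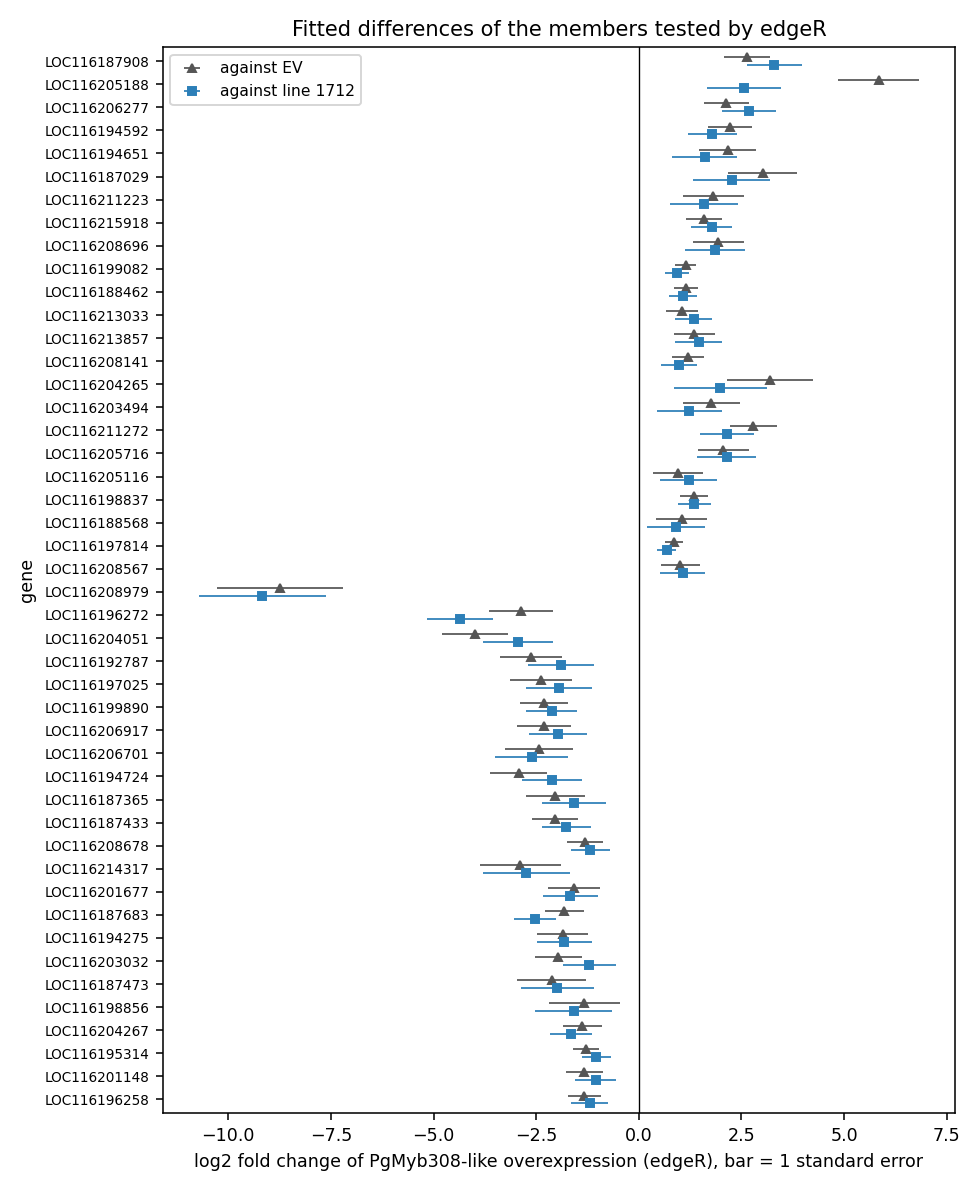
Log2 fold change of PgMyb308-like overexpression against EV (grey triangles) and against line 1712 (blue squares) for the 46 members that edgeR tested, with bars of 1 standard error. The higher members run from 0.86 to 5.84 against EV, the lower ones lie left of 0, and the values of LOC116208979 depend on the prior count. The comparisons share the PgMyb308-like libraries, so that they are not independent.

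Most members were genes of low count, which sets how precisely each is known. The median of the mean normalized count was 22.7 in the higher and 24.6 in the lower members, against 58.5 over the 14869 genes, and 19 of 25 and 22 of 23 members had a mean under 50, against 44.1% of those genes. With the reads of each side pooled, the level over the 3 PgMyb308-like libraries was a median of 3.17 times that of the other 5 in the higher members, and in the lower ones the other 5 stood at a median of 3.90 times, each over the members with a finite ratio, which leaves out LOC116187881 and LOC116208979. The rule itself fixes that these ratios lie beyond 1.

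The edge of the rule split genes of like values. On the higher side LOC116197814 was just inside, with 471 to 521 normalized counts in PgMyb308-like lines against 244 to 313 in the others, and LOC116208567 was the other member nearest to the edge. LOC116210938 was just outside, with 108 to 116 against 54.4 to 73.6, and so was LOC116189625, with 12.3 to 23.7 against 2.41 to 8.53. On the lower side LOC116196258 was just inside, with 16.9 to 22.7 against 34.1 to 73.4, and so was LOC116201148, with 9.09 to 19.5 against 29.3 to 52.2. LOC116200045 was just outside, with 0 to 9.09 against 13.6 to 31.8, and LOC116212415 was the next one out, with 14.4 to 19.5 against 28.8 to 42.8.

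In the annotation each of the 48 members is a protein-coding gene, against 97.7% of the 14869 genes, and 19 of 25 and 18 of 23 have 1 annotated transcript, against 65.8%. Their median lengths were 2834 and 3003 bases, against 3217. Of the higher members 7 lie on chromosome 4 and 6 on chromosome 8, which hold 15.4% and 9.81% of the 14869 genes, and of the lower members 6 lie on chromosome 2, which holds 16.2%. No test of these shares was made.

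No member lay next to another in the count table, though 4 pairs were under 200 kb apart. The closest were LOC116187683, a lower member, and LOC116188462, a higher one, with 71.2 kb and 11 counted genes between them on chromosome 8, where the higher member LOC116187029 follows after another 116 kb. The lower members LOC116196272 and LOC116194724 lie 96.2 kb apart on chromosome 2, with 6 counted genes between them. The pair that differed in direction at like size was LOC116204265 and LOC116204267 on chromosome 4, singled out after their values were seen, with 5 counted genes between them and lengths of 375 and 369 bases. LOC116204265, from 27790748 to 27791122, had 25.5, 44.4 and 17.5 normalized counts with PgMyb308-like, against 3.95 and 11.2 in line 1712 and 8.42, 0 and 1.38 in EV. LOC116204267, from 27916670 to 27917038, had 16.4, 7.22 and 11.7, against 32.8 and 39.1 in line 1712 and 36.1, 28.8 and 24.9 in EV. Whether these short genes share sequence was not tested.

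Of all genes tested, 4.85% were higher and 3.42% lower with PgMyb308-like than in EV at an unadjusted p under 0.05, and the genes next to the members in the count table were near these shares or under them. Of the 41 flanking genes of higher members that edgeR tested, 21 were higher with PgMyb308-like than in EV, 1 of them at an unadjusted p under 0.05. Of the 40 flanking genes of lower members 13 were lower, 1 of them at that p, while 2 were higher at that p. Their median log2 fold changes were 0.00088 and 0.15. Reads are counted here on extended 3′ ends, and 8 of the 48 members overlap another annotated gene, and their reads cannot be given to 1 gene with certainty. In LOC116201677, a lower member with 1.82, 7.22 and 13.6 normalized counts against 28.8 and 22.3 in line 1712 and 26.5, 24.5 and 22.8 in EV, a pair of counted genes overlaps the locus. The shorter one, inside it, had 0, 1.03 and 0.65 with PgMyb308-like, against 4.52 and 18.1 in line 1712 and 6.01, 3.20 and 3.45 in EV, all below line 1712 and EV as in LOC116201677. The longer one, which spans the locus, had 100.02, 58.8 and 27.3, against 39.0 and 60.0 in line 1712 and 51.7, 50.1 and 123 in EV, so that its groups overlapped.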

How the data were processed

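RNA of 8 hairy root libraries was sequenced from the 3′ end (TranSeq). Alignment by the authors used STAR 2.4.2a and counting HTSeq 0.6.1p1, restricted to the 3′ end of genes with an extension past it, and the raw counts were deposited. Among the tools in the submitters' processing notes are DESeq2 1.10.1 and cutadapt. The second deposited table holds a normalized signal, the counts divided by 1 size factor per library, which matched median-of-ratios factors computed here within 2.03e-05%. No gene in the table has a highest count under 6. Of its 18831 genes 18820, with all 48 members, were found by locus identifier in the RefSeq annotation of ASM765513v2, whose coordinates are used.

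The members were found on the normalized table by the rule given in the report. They, the lists and the tests were chosen with earlier results of these data known. Raw counts were also tested with edgeR 4.0.16 (R 4.3.3) by its quasi-likelihood test after its expression filter (minimum count 10, minimum total 15) and TMM normalization, with the 3 groups in 1 fit, 5 residual degrees of freedom and Benjamini-Hochberg adjustment over 15957 genes. A standard error is the log2 fold change divided by the square root of F. DESeq2 1.42.0 was an alternative. The PgMyb308-like and EV libraries came from separate root lines, while the labels do not say whether the 2 libraries of line 1712 did, so that their spread may be technical. The edgeR test against EV was tried on simulated counts with planted differences, and the rule that chose the members was not. Between libraries of 1 group, chi-square over its degrees of freedom was 8.34 to 34.7, so none was a copy of another. Log2 CPM used a prior count of 2.

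Named members are, per direction, the 10 with the widest gap, the 5 with the highest mean, and those at the edge of the rule. Every other member with values in the text was chosen after its values were seen, and so was the flanking gene LOC116194173. Lists of product names, protein motifs and promoter motifs were not used, since no names or sequences were at hand for these loci. The plots were drawn with matplotlib 3.10.9.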

Additional observations from a re-analysis of the deposited data

How the results depend on the processing

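The number of members followed the rule closely. With the nearest libraries only 25% apart it gave 60 higher and 62 lower genes and with a gap of 2 times 6 and 4. No minimum mean gave 56 and 51, and a minimum of 50 gave 6 and 1. TMM library sizes gave 22 and 23, of which 21 and 22 were members, and library totals 17 and 24, of which 16 and 20 were members. After thinning to the smallest library total 18 and 23 genes met the rule, of which 11 and 11 were members, so that at this depth the rule found in part different genes. Keeping genes with a shifted line 1712 gave 35 and 28. Leaving out 1 library gave 21 to 147 higher and 20 to 283 lower genes, with 61 and 71 without PgMyb308-like replicate 1, 45 and 55 without replicate 2, 147 and 283 without replicate 3 and 38 higher genes without line 1712 replicate 2. Without line 1712 replicate 1, 11 of the 25 higher and 15 of the 23 lower members still met the rule, since 1 line 1712 library outside the EV range then drops a gene.

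Against EV, edgeR called 6 genes and no member, DESeq2 200 genes and 13 members, edgeR without a filter on low counts 20 genes, and the 6 PgMyb308-like and EV libraries alone 2. Leaving out 1 library gave 0 to 129 genes, 129 without PgMyb308-like replicate 3, 2 without its replicate 2, 1 when EV replicate 2 was left out and 0 for EV replicate 3, and 0 to 2 members. Against line 1712 edgeR called 0 genes and DESeq2 12, and leaving out 1 library gave 0 to 4. The causes were not tested. Over the alternatives, the 503 refitted log2 fold changes of the 46 members tested all kept their sign. The gap that the rule asks for fixes this sign in advance, so nothing is read from it. Of the refitted values 10, all from leaving out a library, moved by more than the spread between libraries.

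Replicate numbers gave no pairing, as same-numbered PgMyb308-like and EV libraries had correlations of -0.24, 0.079 and -0.28 between their deviations from the group means. With a replicate block edgeR called 0 genes against EV.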
